A study of Mus musculus with 4 samples.

Results

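The genes examined were 10 members of the NF-kappaB pathway in skin cells labelled as regulatory T cells. They were chosen by gene name from 55487 gene IDs: the subunits Nfkb1, Nfkb2, Relb and Rel, the IkappaB proteins Nfkbia, Nfkbie and Bcl3, and the ubiquitin-linked feedback genes Tnfaip3, Tnip1 and Birc3. RNA came from mice in which imiquimod, which activates the Toll-like receptor TLR7, was applied to the shaved back every day as 60 mg of a 5% cream to induce psoriasis-like dermatitis. UVB replicates 1 and 2 came from mice that also had 3 exposures to narrow-band ultraviolet B, and non-UVB replicates 1 and 2 from mice without them. The cream is described for the study's mice as a whole, and not by library. No strain, sex or age is given in the sources used here, and neither is the number of animals behind a library or the way the cells were sorted.

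NF-kappaB is a family of dimeric transcription factors held in the cytoplasm by IkappaB proteins. Receptors of T cells, of tumour necrosis factor and of interleukin-1 activate IkappaB kinase, which marks the inhibitors for destruction and frees the dimers. A slower, non-canonical branch uses the kinase NIK, encoded by Map3k14, to process the precursor made from Nfkb2 so that it can pair with RelB. Many inhibitors are themselves induced by NF-kappaB and so close a feedback loop. In T cells the subunit c-Rel, encoded by Rel, is known for its part in the development of Foxp3+ regulatory T cells.

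The libraries corresponded to 4.2 and 2.38 gigabases of 100 bp reads in UVB replicates 1 and 2 and to 3.41 and 2.47 gigabases in non-UVB replicates 1 and 2, as derived from deposited coverage and FPKM. Values are TPM, a relative abundance scaled to gene length, with the same total in each library. The label was set against defining markers. Foxp3 had 3.49 and 19.3 TPM in UVB replicates 1 and 2, and was listed at 0 and had 19.4 TPM in non-UVB replicates 1 and 2. Over 8 regulatory T cell markers, TPM totalled 1974 and 4347 in UVB replicates 1 and 2, against 2066 and 5288 without UVB. Genes listed as CD4 T cell markers, 10 in all, came to 6568 and 5058 TPM with UVB and to 7148 and 7902 TPM without. These sums hide differences between genes. Cd4 itself had 33.9 and 71.6 TPM with UVB and 6.02 and 138 TPM without, and Trac 554 and 878 against 274 and 2350 TPM. Cd3e had 510 and 189 TPM with UVB and 735 and 255 TPM without. Of the 10, 5 were above in both libraries numbered 2 and 2 below, against 22.5% and 18.5% of all genes. The libraries numbered 2 stood apart from those numbered 1 in their marker sums: 8 gamma-delta T cell markers summed to 309 and 178 TPM in UVB and non-UVB replicate 2 against 9959 and 10270 TPM in UVB and non-UVB replicate 1, and 11 keratinocyte markers to 4314 and 3940 TPM against 465 and 294 TPM. Macrophage and dendritic cell markers, 15 genes, summed to 21520 and 13460 TPM in UVB replicates 1 and 2 against 12690 and 5329 TPM in non-UVB replicates 1 and 2. Haemoglobin genes, 4 in all, summed to 1529 and 2546 TPM with UVB against 117400 and 4414 TPM without. Of the B cell markers 4 of 5, and of the fibroblast and endothelial markers 6 of 9, were at 0 in all 4 libraries. Genes that reached 1 TPM numbered 10317 and 10227 with UVB, and 7825 and 8033 without. No source says that replicates are separate animals, so p-values measure the spread between these libraries only. In such bulk RNA, fewer cells of a type and less RNA per cell cannot be told apart.

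Since NF-kappaB binds kappaB elements, the promoter windows of the members were read for them first. RefSeq windows of GRCm38.p6, covering 250 bases before to 50 after a start site, were listed for 8 of the 10 members in 11 windows. Both strands were searched, and overlapping matches were counted once. The motif was the kappaB consensus decamer, read as GGG, a purine, any base, A or T, 2 pyrimidines and CC. It was found in 9 of the 11 windows and in 7 of the 8 genes, against 4.51% of all 32851 windows. The second and the third Nfkb2 window share a match, so windows are not independent. It was not found in the Birc3 window or in 1 of the 2 Tnfaip3 windows. The AP-1 heptamer TGACTCA was found on either strand in 2 of the 11 windows, against 5.2% of all windows. These windows belong to Nfkbie and Tnfaip3, 2 of the 8 genes. Letter matches describe these windows and say nothing of binding in these cells.

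Stretches that carry a match, at least 1 for each of the 7 genes, are shown so that the matched letters can be compared between genes. They run 5′ to 3′ in the sense of transcription, with the match in capitals. Capitals show the sense strand also where the decamer reads on the other strand, as for Nfkbia. Overlapping matches form a single run of more than 10 bases for Rel, Tnip1 and the first Nfkb2 stretch. Where a stretch lies inside the gene as deposited, 30 bases are given.
Nfkbia, chr12:55492648-55492711, minus strand, ending at the base before the start: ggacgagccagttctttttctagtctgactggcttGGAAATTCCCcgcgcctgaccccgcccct
Nfkbie, chr17:45555559-45555638, plus strand: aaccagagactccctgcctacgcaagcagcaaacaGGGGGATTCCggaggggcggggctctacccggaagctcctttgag
Rel, chr11:23771016-23771096, minus strand: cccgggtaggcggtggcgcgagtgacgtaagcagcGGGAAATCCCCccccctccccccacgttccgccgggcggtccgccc
Tnip1, chr11:54962952-54963033, minus strand: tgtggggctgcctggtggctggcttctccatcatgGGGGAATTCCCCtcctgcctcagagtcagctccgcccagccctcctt
Nfkb2, chr19:46304689-46304718, plus strand: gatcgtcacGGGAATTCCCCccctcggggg
Nfkb2, chr19:46304716-46304745, plus strand: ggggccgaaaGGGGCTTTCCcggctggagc
Nfkb2, chr19:46305695-46305724, plus strand, in the second and the third window: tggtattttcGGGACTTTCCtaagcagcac
Tnfaip3, chr10:19015403-19015432, minus strand: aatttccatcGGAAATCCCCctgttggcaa
Tnfaip3, chr10:19015516-19015545, minus strand: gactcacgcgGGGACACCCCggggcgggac
Bcl3, chr7:19822734-19822763, minus strand: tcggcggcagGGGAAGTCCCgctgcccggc

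**Figure D1:**
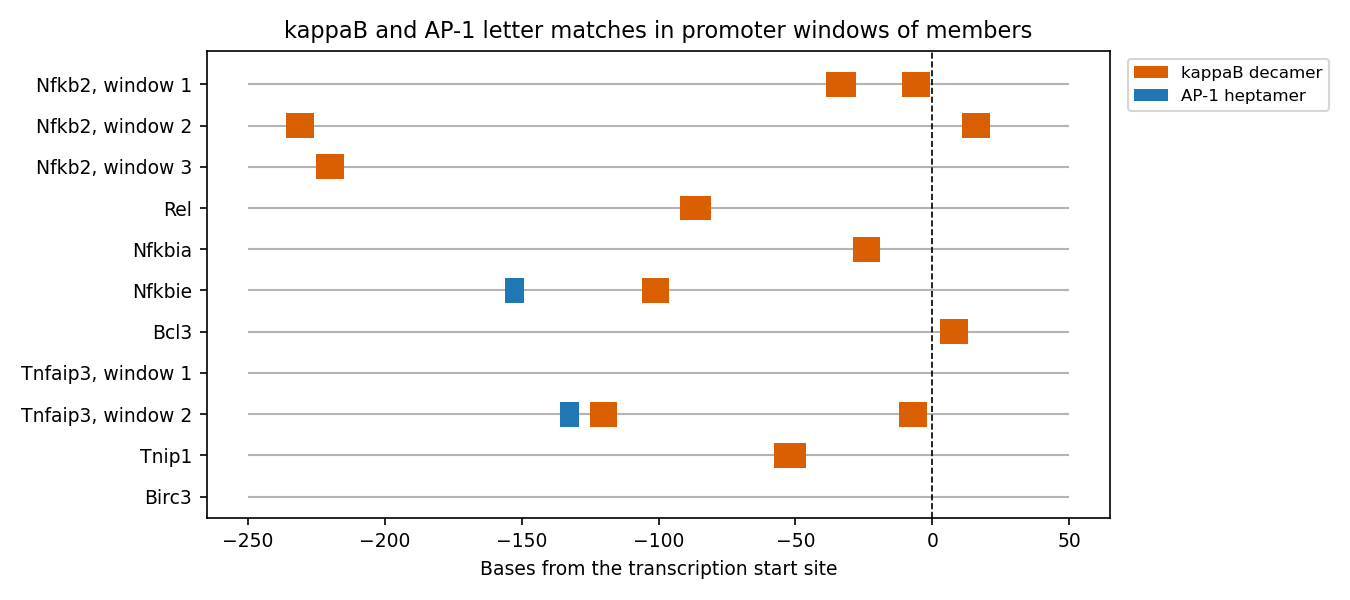
Position of kappaB decamer matches (orange) and AP-1 heptamer matches (blue) in the promoter windows of 8 members, in bases from the transcription start site (dashed line), with window numbers running by genome coordinate. The Nfkbia match begins 29 bases before the start and the Rel match 92 bases before it, and Birc3 has neither motif.

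Transcripts of all 10 members were present at 10 TPM or more in 3 of the 4 libraries, and in non-UVB replicate 2 this held for 9 of them. Nfkbia stood far above the rest at a mean of 1705 TPM over the 4 libraries and ranked between 47 and 77 among all genes of its library. Its lowest library exceeded the highest library of every other member. It made up 68.8% and 75.4% of the members' summed TPM in UVB replicates 1 and 2 and 63.7% and 71.2% in non-UVB replicates 1 and 2. In order of mean TPM there followed Tnfaip3 at 164, Bcl3 at 140, Birc3 at 111, Nfkb2 at 96.5, Tnip1 at 60.5, Relb at 54.0, Nfkb1 at 38.1, Nfkbie at 37.3 and Rel at 27.5. Among these 9 the ranges of each pair of neighbours overlapped, so their order does not hold beyond the spread between libraries.

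The order also depends on the length behind a value. Deposited coverage averages reads over the exons of a gene, whereas TPM sums over transcripts. Coverage per gigabase stood at 0.227 to 0.242 of the FPKM for Birc3, 0.276 to 0.283 for Bcl3 and 0.311 to 0.322 for Nfkb1, but at 1.0 for Rel and 0.975 to 0.98 for Nfkbia. By mean coverage per gigabase Nfkbia stayed first at 1127 and Tnfaip3 second at 65.0, while Birc3 moved to rank 9 at 17.6, below Rel at 18.6, and Nfkb1 to rank 10 at 8.12.

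**Figure D2:**
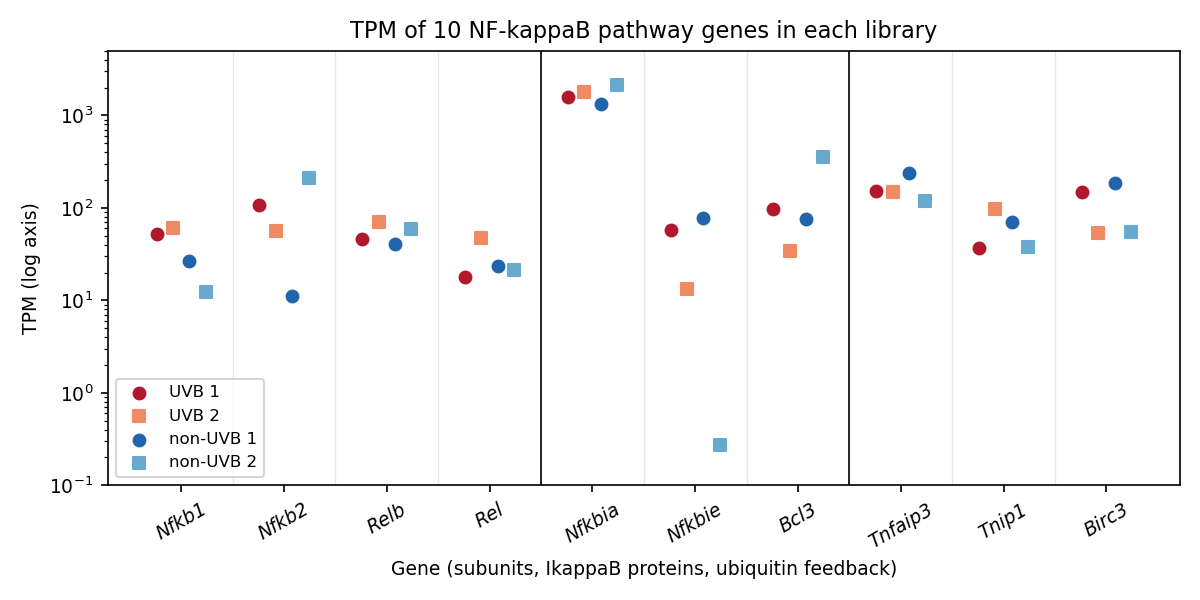
TPM (log axis) of each member in UVB replicates 1 and 2 (red and orange) and non-UVB replicates 1 and 2 (dark and light blue), with circles for number 1 and squares for number 2, grouped as subunits, IkappaB proteins and ubiquitin-linked feedback genes. Nfkbia lies at 1317 TPM or more in each library, and Nfkbie drops to 0.27 TPM in non-UVB replicate 2.

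The comparison of UVB with non-UVB libraries asked whether irradiation was accompanied by a change in these transcripts. Nfkb1 was the one member whose UVB libraries both lay above both non-UVB libraries, and Relb and Birc3 were alone in keeping the same direction within both replicate numbers without such a separation. None of the 10 members passed limma's test at a Benjamini-Hochberg adjusted p under 0.05, and 0% of the 10286 genes tested did. At an unadjusted p under 0.05 the members called were 0 of 10, against 11.3% of all genes. Groups did not overlap for 1 of 10 members, against 32.9% of all genes. Directions were the same within both replicate numbers for 3 of 10 members, against 51.7% of all genes, and opposite for 7 of 10, against 46.1%. The members' median difference was 0.22 on the log2(TPM + 1) scale, with all genes at 0.26. With 2 libraries against 2, an exact two-sided permutation test of a single gene cannot go below p = 0.333.

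Among the subunits, Nfkb1 (ENSMUSG00000028163, chromosome 3, 135584655 to 135691547, GRCm38) encodes the precursor of p50, a partner of most NF-kappaB dimers. It had 52.7 and 60.8 TPM in UVB replicates 1 and 2 and 26.5 and 12.2 TPM in non-UVB replicates 1 and 2. Both UVB libraries were above both non-UVB libraries, and the 2 non-UVB libraries differed from each other more than the UVB ones did. The mean was 56.8 ± 5.73 TPM with UVB and 19.3 ± 10.2 TPM without (SD, n = 2 each). The log2(TPM + 1) difference was 1.60 ± 0.81 (SE), which did not pass limma (adjusted p = 0.710). Within replicate number 1 it was 0.97 and within number 2 it was 2.23, and 1.07 to 2.13 when each library was left out in turn. Macrophage and dendritic cell markers lay in the same direction, with 14 of 14 tested genes higher on average with UVB, against 61% of all genes. Both UVB libraries were above for 4 of the 15 markers, near the 23.2% of all genes, and Itgax was listed at 0 in both UVB libraries and non-UVB replicate 2. Their part in the Nfkb1 values was not tested.

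Nfkb2 (ENSMUSG00000025225, chromosome 19, 46304320 to 46312385) encodes the precursor of p52, the partner of RelB in the non-canonical branch. It had 107 and 56.8 TPM in UVB replicates 1 and 2 and 11.2 and 211 TPM in non-UVB replicates 1 and 2. The lowest and the highest library were both non-UVB, 18.9-fold apart, and the UVB libraries lay between them. The difference was therefore 3.15 within number 1 and -1.88 within number 2, with 0.63 ± 1.61 (SE, n = 2 each) over all 4 libraries (limma adjusted p = 0.9998). Without non-UVB replicate 1 it was -1.43. Psd and a long non-coding RNA overlap Nfkb2 on the other strand at a mean of at most 4.84 TPM, and without a stated strand their reads cannot be told apart from its own.

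Relb (ENSMUSG00000002983, chromosome 7, 19606217 to 19629438) encodes the transactivating subunit of that branch. It had 46.2 and 70.6 TPM in UVB replicates 1 and 2 and 40.2 and 59.0 TPM in non-UVB replicates 1 and 2. The groups overlapped, and Relb had the narrowest range of the 4 subunits, 1.75-fold between its lowest and highest library. The difference was 0.22 ± 0.66 (limma adjusted p = 0.9998), at 0.19 and 0.26 within the numbers. With UVB replicate 2 left out it was -0.08, and with non-UVB replicate 1 left out -0.05.

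Rel (ENSMUSG00000020275, chromosome 11, 23736847 to 23770970) had 17.8 and 47.4 TPM in UVB replicates 1 and 2 and 23.5 and 21.4 TPM in non-UVB replicates 1 and 2. UVB replicate 2 was high and the other 3 libraries lay together. Means were 32.6 ± 20.9 TPM with UVB and 22.5 ± 1.46 TPM without (SD, n = 2 each), a log2 difference of 0.37 ± 0.92 (limma adjusted p = 0.9998). Without UVB replicate 2 it was -0.32.

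With Rela, the p65 subunit of the canonical branch, the 5 subunits of the family were compared as shares of their summed TPM, which no scaling between libraries can alter. Nfkb2 took 39.3% and 16.0% in UVB replicates 1 and 2 and 7.05% and 65.2% in non-UVB replicates 1 and 2. Rela took 17.8% and 33.8% with UVB and 36.0% and 6.20% without. The ratio of Nfkb2 to Nfkb1 was 2.03 and 0.934 in UVB replicates 1 and 2 and 0.421 and 17.4 in non-UVB replicates 1 and 2. UVB replicate 2 and non-UVB replicate 1 thus resembled each other in subunit make-up, with Rela as the leading share, and in UVB replicate 1 and non-UVB replicate 2 Nfkb2 led. By fold between libraries, though not by percentage points, Relb kept the steadiest share, 17.0% and 19.8% with UVB and 25.4% and 18.2% without. The Rel share was 6.56% and 13.3% with UVB and 14.8% and 6.61% without.

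**Figure D3:**
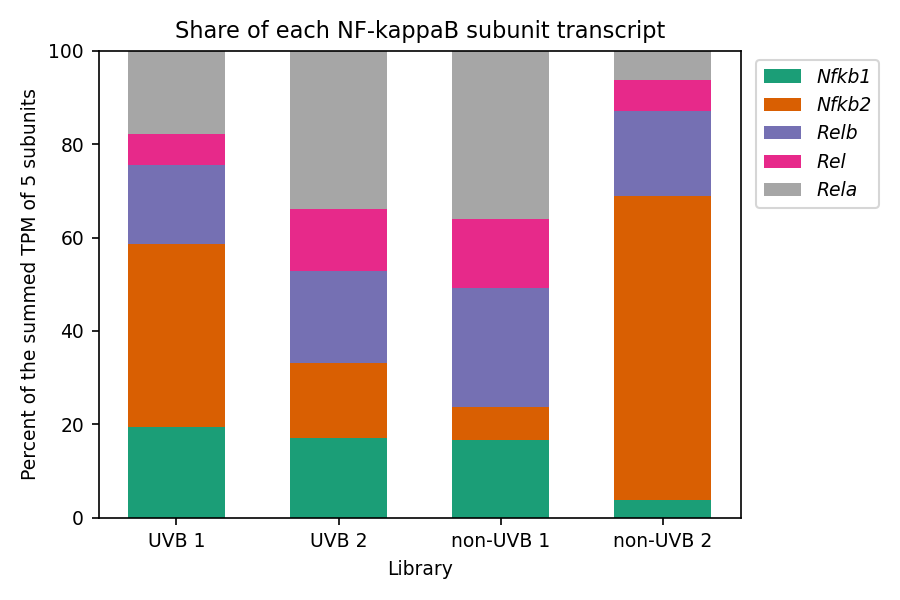
Percent of the summed TPM of the 5 NF-kappaB subunits taken by Nfkb1, Nfkb2, Relb, Rel and Rela in each library. The Nfkb2 share runs between 7.05% in non-UVB replicate 1 and 65.2% in non-UVB replicate 2, and the UVB libraries lie between them.

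Among the IkappaB proteins, Nfkbia (ENSMUSG00000021025, chromosome 12, 55489410 to 55492647) encodes IkappaB-alpha, the main cytoplasmic inhibitor, resynthesised on activation. It had 1571 and 1780 TPM in UVB replicates 1 and 2 and 1317 and 2151 TPM in non-UVB replicates 1 and 2. The UVB libraries lay inside the non-UVB range, and the whole range was 1.63-fold, the narrowest of the 10 members. Means were 1675 ± 148 TPM with UVB and 1734 ± 590 TPM without (SD, n = 2 each). The difference was -0.0093 ± 0.36 (SE; limma adjusted p = 0.9998), and 0.04 after quantile normalization, so it has no direction that holds. With UVB replicate 1 left out it was 0.08, and with non-UVB replicate 2 left out 0.34. The ratio of Nfkbia to the summed TPM of the subunits Nfkb1, Nfkb2, Relb and Rel was 7.03 and 7.55 in UVB replicates 1 and 2 and 13.0 and 7.08 in non-UVB replicates 1 and 2, so 3 libraries lay close together and non-UVB replicate 1 stood above them.

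Of 2574 protein-coding genes outside the lists with a mean of at least 50 TPM, the profiles closest to Nfkbia over the 4 libraries were those of Eif3k, a subunit of a translation initiation factor, Ptma, which encodes prothymosin alpha, and Swi5, a recombination protein. Their root mean square distances on the centred log2(TPM + 1) scale were 0.041, 0.059 and 0.064. Eif3k had 338 and 364 TPM with UVB and 263 and 433 TPM without, the same order of libraries as Nfkbia. These genes were picked for their closeness to Nfkbia over only 4 libraries, so the shared order adds nothing to the choice.

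Nfkbie (ENSMUSG00000023947, chromosome 17, 45555703 to 45563169) encodes IkappaB-epsilon, an inhibitor prominent in lymphocytes. It had 57.8 and 13.3 TPM in UVB replicates 1 and 2 and 77.8 and 0.27 TPM in non-UVB replicates 1 and 2. Non-UVB replicate 2 was 288-fold below non-UVB replicate 1, the widest range among the members, and the libraries numbered 2 were the low ones. Deposited coverage gave the same picture, a mean read depth per base of 146 and 21.5 with UVB and 141 and 0.457 without. The UVB difference was 1.54 ± 2.44 (SE, n = 2 each; limma adjusted p = 0.9998), and -1.44 without non-UVB replicate 2.

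Bcl3 (ENSMUSG00000053175, chromosome 7, 19808462 to 19822770) encodes a nuclear IkappaB protein that binds p50 and p52 homodimers and can activate transcription with them. It had 96.1 and 33.9 TPM in UVB replicates 1 and 2 and 75.1 and 355 TPM in non-UVB replicates 1 and 2. Non-UVB replicate 2 stood above the other 3 libraries, as it did for Nfkb2. Means were 65.0 ± 44.0 TPM with UVB and 215 ± 198 TPM without (SD, n = 2 each). The difference was -1.50 ± 1.07 (SE; limma adjusted p = 0.914), at 0.35 and -3.35 within the numbers, and it was -0.39 without non-UVB replicate 2.

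Among the ubiquitin-linked genes, Tnfaip3 (ENSMUSG00000019850, chromosome 10, 19000910 to 19015657) encodes the deubiquitinating enzyme A20, a brake on the signal upstream of IkappaB kinase. It had 151 and 148 TPM in UVB replicates 1 and 2 and 237 and 119 TPM in non-UVB replicates 1 and 2. The UVB libraries were nearly equal and lay inside the non-UVB range. Means were 150 ± 1.65 TPM with UVB and 178 ± 83.5 TPM without (SD, n = 2 each), a difference of -0.16 ± 0.55 (SE; limma adjusted p = 0.9998). Without non-UVB replicate 1 it was 0.33.

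Tnip1 (ENSMUSG00000020400, chromosome 11, 54910785 to 54962917) encodes the ubiquitin-binding A20 partner ABIN1. It had 36.9 and 96.4 TPM in UVB replicates 1 and 2 and 71.1 and 37.4 TPM in non-UVB replicates 1 and 2. One library of each group was high, and the groups overlapped fully. The difference of 0.21 ± 0.83 did not pass limma (adjusted p = 0.9998), and became -0.47 when UVB replicate 2 was left out and -0.25 when non-UVB replicate 2 was.

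Birc3 (ENSMUSG00000032000, chromosome 9, 7848699 to 7873186) encodes the ubiquitin ligase cIAP2, which acts downstream of tumour necrosis factor receptors. It had 147 and 53.3 TPM in UVB replicates 1 and 2 and 188 and 54.2 TPM in non-UVB replicates 1 and 2. The libraries of each number lay together whatever the irradiation. The UVB difference was -0.19 ± 0.95 (SE; limma adjusted p = 0.9998), at -0.35 and -0.02 within the numbers. With UVB replicate 2 left out it was 0.54, and with non-UVB replicate 1 left out 0.70.

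**Figure D4:**
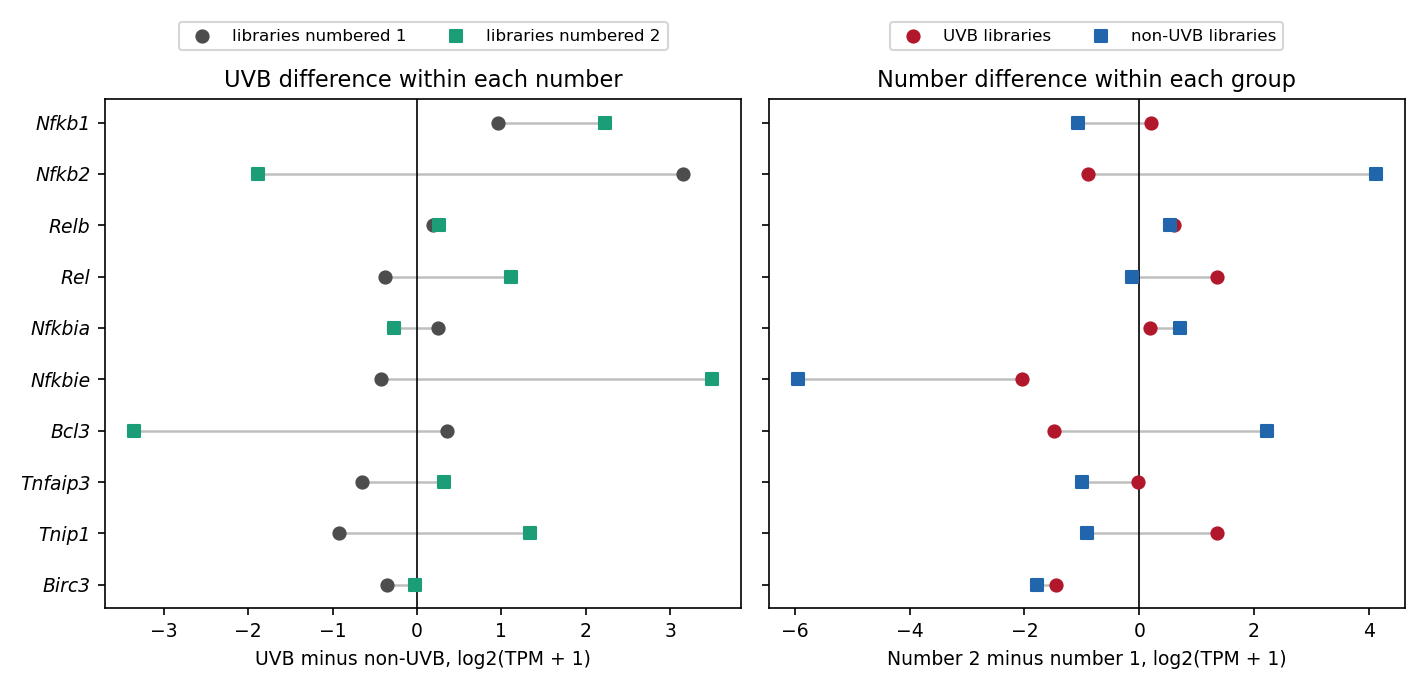
Left, UVB minus non-UVB difference of each member in log2(TPM + 1), in the libraries numbered 1 (grey circles) and 2 (green squares). Right, number 2 minus number 1 difference within the UVB (red circles) and non-UVB libraries (blue squares). On the left the points of 7 of 10 members lie on opposite sides of 0, and on the right Birc3 lies at -1.45 and -1.77.

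The libraries were also compared by replicate number, since cell type markers divided along it. The labels do not say what a number marks. Libraries numbered 2 were both below those numbered 1 for Nfkbie, Birc3 and Tnfaip3, and both above them for Relb and Nfkbia. Numbers did not overlap for 5 of 10 members, against 40.9% of all genes. None passed limma's adjusted p of 0.05, which 0% of the 10286 genes did, and 1 of 10 members had an unadjusted p under 0.05, against 12.5% of all genes. The members' median difference was 0.30 on the log2(TPM + 1) scale, with all genes at 0.10.

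Birc3 was the member with the unadjusted p under 0.05. It had 53.3 and 54.2 TPM in UVB and non-UVB replicate 2 against 147 and 188 TPM in UVB and non-UVB replicate 1, a mean of 53.7 ± 0.593 TPM against 167 ± 28.8 TPM (SD, n = 2 each). The number 2 minus number 1 difference was -1.61 ± 0.42 (SE; limma unadjusted p = 0.0205, adjusted p = 0.261), with -1.45 in the UVB and -1.77 in the non-UVB libraries. The Nfkbie difference was larger but less even, -4.00 ± 1.55 (limma adjusted p = 0.441), with -2.04 in the UVB and -5.96 in the non-UVB libraries. Nfkbia differed by 0.44 ± 0.22 (adjusted p = 0.565) and Relb by 0.57 ± 0.52 (adjusted p = 0.790). For Tnfaip3, at -0.51 ± 0.42 (adjusted p = 0.766), the UVB libraries differed by -0.02 only. Gamma-delta T cell markers, all 8 of those found, were below in the libraries numbered 2, as were 8 of 15 macrophage and dendritic cell markers, against 18.5% of all genes, with none of either list above. Above in both libraries numbered 2 were 8 of 11 keratinocyte and 6 of 8 regulatory T cell markers, against 22.5% of all genes. The part of these markers in the values of the members was not tested.

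The other 5 members overlapped between numbers. Nfkb2 differed by 1.61 ± 1.41, with -0.90 in the UVB and 4.13 in the non-UVB libraries, and Bcl3 by 0.37 ± 1.28, with -1.48 and 2.22. Both genes were highest in non-UVB replicate 2. Without non-UVB replicate 1, the number difference of Nfkb2 was 0.04. Rel and Tnip1 took the other course, at 1.36 each in the UVB libraries and -0.13 and -0.91 in the non-UVB libraries, and both were highest in UVB replicate 2. Nfkb1 stood at 0.20 in the UVB and -1.06 in the non-UVB libraries. Without UVB replicate 1 the number difference of Nfkb1 was 0.05, against -0.43 over all 4 libraries, and without non-UVB replicate 2 it was 0.69. That of Bcl3 was -1.30 without non-UVB replicate 2. That of Tnip1, 0.23 over all 4 libraries, was -0.24 and -0.45 without UVB replicates 1 and 2.

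The remaining IkappaB family genes were uneven between libraries. Nfkbiz, a nuclear IkappaB protein needed for a set of secondary response genes, had 56.3 and 171 TPM in UVB replicates 1 and 2, and was listed at 0 and had 38.8 TPM in non-UVB replicates 1 and 2. Nfkbid, another nuclear family member that induces Foxp3 in developing regulatory T cells of mice, had 0.254 and 144 TPM with UVB and 196 and 155 TPM without. Nfkbib, which encodes the cytoplasmic inhibitor IkappaB-beta, had 200 and 186 TPM with UVB and 301 and 179 TPM without. Rela had 48.5 and 120 TPM with UVB and 57.1 and 20.1 TPM without. A value near 0 in a single library thus occurred for Nfkbie, Nfkbid and Nfkbiz, each in a different library. The groups did not overlap for Nfkbiz, which was higher with UVB at 3.98 ± 2.14 (limma adjusted p = 0.757). They did not overlap for Nfkbid either, lower at -3.70 ± 2.53 (adjusted p = 0.899), and overlapped for Nfkbib and Rela. Of all genes, 32.9% did not overlap. Within numbers 1 and 2 the difference was -7.30 and -0.10 for Nfkbid, and 5.84 and 2.11 for Nfkbiz.

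Of the other genes of the pathway, none passed limma at an adjusted p under 0.05. Adaptors and kinases had 14 of 24 tested genes higher and 10 lower on average with UVB, against 61% of all genes higher. Their median difference was 1.10, against 0.26 for all genes. For 9 of the 24 both UVB libraries were above both non-UVB libraries, against 23.2% of all genes, and for 3 both were below, against 9.71%. Ikbkg, which encodes the IkappaB kinase regulator NEMO, had 11.3 and 9.78 TPM with UVB, and was listed at 0 and had 0.066 TPM without (difference 3.48 ± 0.68). Map3k7, which encodes the upstream kinase TAK1, had 36.2 and 15.9 TPM with UVB, and was listed at 0 and had 0.094 TPM without (4.58 ± 0.9995). Map3k14, the NIK gene that acts on the Nfkb2 product, had 16.4 and 3.81 TPM with UVB, and was listed at 0 and had 0.055 TPM without (3.16 ± 0.90), and was chosen after its values were seen. These 3 genes passed the filter of 1 TPM in 2 libraries only through the group in which they were high, so that they had to differ if tested, and they are among the 9. On the lower side, Tradd, an adaptor of tumour necrosis factor receptors, had 90.4 and 45.1 TPM with UVB and 150 and 114 TPM without (-1.02 ± 0.62), and Traf6, a ubiquitin ligase of interleukin-1 and Toll-like receptor signalling, had 10.1 and 27.7 TPM with UVB and 48.0 and 33.8 TPM without (-1.21 ± 0.93).

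Receptors and ligands had 9 of 16 tested genes higher and 7 lower on average with UVB, against 61% of all genes higher. Their median was 0.11, against 0.26 for all genes. For 2 both UVB libraries were above both non-UVB libraries and for 2 both were below, against 23.2% and 9.71% of all genes. Tnfsf14, the ligand LIGHT, had 43.5 and 11.3 TPM with UVB, and 0 is listed for either library without, so it too passed the filter only through the UVB libraries. Ltb, a chain of lymphotoxin that engages the receptor of the non-canonical branch, had 381 and 469 TPM with UVB and 249 and 343 TPM without (0.53 ± 0.40, adjusted p = 0.934). Tnfrsf1a, a receptor of tumour necrosis factor, had 15.3 and 1.43 TPM with UVB and 38.8 and 75.1 TPM without (-3.13 ± 1.37, adjusted p = 0.612). Cd27, a costimulatory receptor, had 81.4 and 176 TPM with UVB and 179 and 464 TPM without (-1.26 ± 0.75, adjusted p = 0.820).

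Other negative regulators had 6 of 8 tested genes higher and 2 lower on average with UVB, against 61% of all genes higher. Their median was 1.37, against 0.26 for all genes. Both UVB libraries were above both non-UVB libraries for 1 of the 8 and below for 1, against 23.2% and 9.71% of all genes. Directions within the numbers were opposite for 5 of the 8, against 46.1% of all genes. Otulin, a deubiquitinase of linear chains, had 185 and 85.4 TPM with UVB and 64.4 and 3.72 TPM without (2.85 ± 1.54, adjusted p = 0.764). Tax1bp1, another partner of A20, had 87.7 and 122 TPM with UVB and 15.0 and 104 TPM without (1.35 ± 1.13, adjusted p = 0.958). N4bp1, an inhibitor of NF-kappaB signalling, had 5.19 and 7.74 TPM with UVB and 14.5 and 40.8 TPM without (-1.79 ± 1.14, adjusted p = 0.859), and Tnfaip8l2 had 40.0 and 1.27 TPM with UVB and 0.139 and 84.9 TPM without (-0.04 ± 2.89).

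Known target genes of NF-kappaB had 15 of 27 tested genes higher and 12 lower on average with UVB, against 61% of all genes higher. Their median was 0.05, against 0.26 for all genes. Both UVB libraries were above both non-UVB libraries for 5 of the 27 and below for 3, against 23.2% and 9.71% of all genes. Marcksl1, a regulator of actin, had 216 and 130 TPM with UVB and 40.5 and 34.9 TPM without (2.13 ± 0.58, adjusted p = 0.272). Ebi3, a cytokine subunit, had 78.8 and 197 TPM with UVB and 44.7 and 0.856 TPM without (3.77 ± 1.86, adjusted p = 0.695). Nr4a1, an orphan nuclear receptor and early response gene of stimulated T cells, had 370 and 249 TPM with UVB and 857 and 747 TPM without (-1.40 ± 0.38, adjusted p = 0.276), and Il2ra, the alpha chain of the receptor for interleukin-2, had 134 and 176 TPM with UVB and 248 and 252 TPM without (-0.70 ± 0.42, adjusted p = 0.827).

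**Figure D5:**
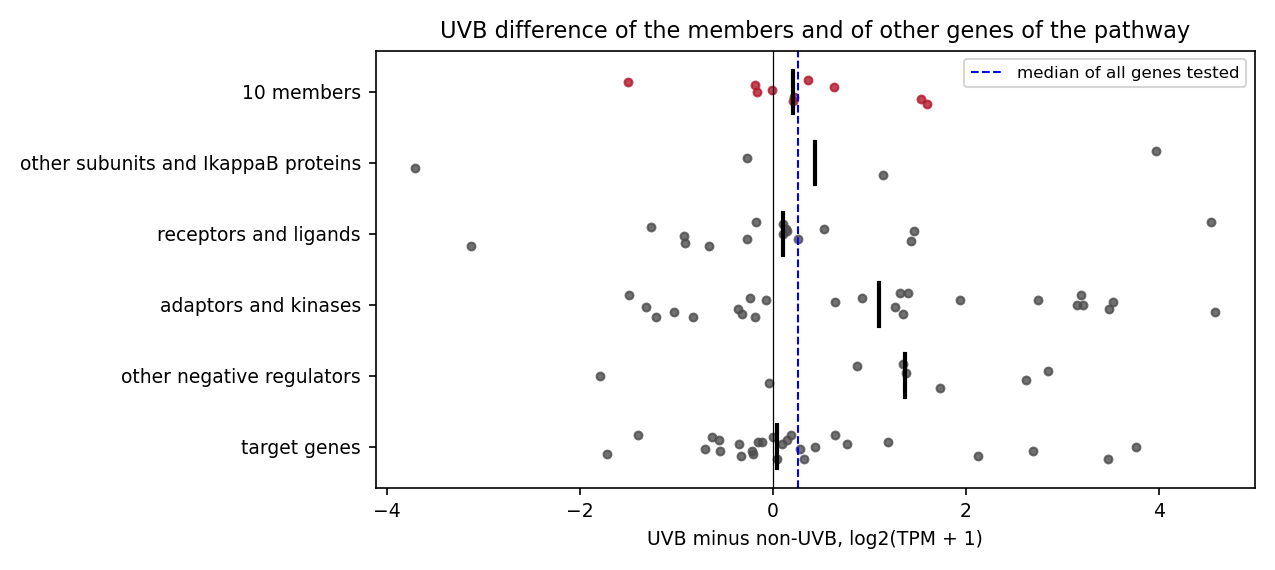
UVB minus non-UVB difference in log2(TPM + 1) of the 10 members (red) and of the tested genes of 5 other lists of the pathway (grey), 1 point per gene, with the median of each list as a black bar and that of all genes tested (0.26) as a dashed line. The members have a median of 0.22, adaptors and kinases one of 1.10 and target genes one of 0.05.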

How the data were processed

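Single-end reads of 100 bp came from ultra-low-input SMARTer libraries of total RNA, per the labels' protocols. The sources used here do not state strandedness. HISAT2, StringTie and DESeq2 are named with GRCm38 (mm10), without versions or roles, per the submitters' processing notes. The authors deposited TPM with a total of 1000000 per library. The authors deposited FPKM, scaled to length and library, beside it. Coverage, as deposited, is unscaled read depth averaged over a gene's bases. Its highest ratio to FPKM gave the bases behind a library.

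Rows of a gene ID were summed. A gene was tested if 2 or more of the 4 libraries reached 1 TPM, which 10286 did. Values were fitted as log2(TPM + 1) with limma 3.58.1 in R 4.3.3 (intensity trend, group or replicate number as the only term, Benjamini-Hochberg). The log scale understates changes of low genes. The fit code was run on simulated data with 200 genes changed, as a check of the code only. The check it had to pass used a narrower spread than these libraries have, so it says nothing of what they can detect. Read numbers were not recovered, so intervals of counting error are left out. UVB differences had a median SE of 1.12.

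Members and lists were chosen with earlier results of these data known. Named were all members, the 4 other subunit and IkappaB genes, and of each further list the 2 genes per direction with the smallest unadjusted UVB p. Annotation came from GENCODE M21 and promoters from RefSeq. Python 3.11.15 and matplotlib 3.10.9 made tables and figures. Alternatives changed the pseudocount (0.1), filter, unit, scaling and model, and left out each library. Scaled coverage was added after seeing the data.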

Additional observations from a re-analysis of the deposited data

Results flagged for a closer look

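For 7 of the 10 members the UVB minus non-UVB difference had opposite signs in the libraries numbered 1 and 2, as it had for 46.1% of all genes. Each number holds 1 library per group, so the differences between numbers were not tested. On the log2(TPM + 1) scale, the difference in number 2 minus that in number 1 was -5.02 for Nfkb2 and -3.70 for Bcl3, both highest in non-UVB replicate 2. It was 3.92 for Nfkbie, 2.27 for Tnip1, 1.49 for Rel, 0.97 for Tnfaip3 and -0.53 for Nfkbia.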

How the results depend on the processing

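In the UVB comparison limma called 0 genes under every alternative run, with 930 to 1344 genes at an unadjusted p under 0.05. In the number comparison it called 0 genes except after quantile normalization, where it called 13, none of them a member. The cause was not tested. With the replicate block it called 0 genes in either comparison, with 1110 and 1155 at an unadjusted p under 0.05. The deviations of same-numbered libraries correlated at 0.165 across genes, which with 2 pairs does not show pairing. The median of all genes was 0.26 with UVB and -0.19 after quantile normalization.

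No member passed under any alternative. Outside leaving out a library, 67 of 70 UVB values and 70 of 70 number values kept their direction. Rel turned to -0.03 and Nfkbia to 0.04 after quantile normalization, and Nfkbia to 0.03 on scaled coverage, a setting added after seeing the data. With each library left out, 12 of 40 UVB values and 5 of 40 number values turned. UVB differences then ran between -1.43 and 2.70 for Nfkb2, -0.08 and 0.53 for Relb, -0.32 and 1.05 for Rel, -0.36 and 0.34 for Nfkbia, -1.44 and 4.52 for Nfkbie, -0.66 and 0.33 for Tnfaip3, -0.47 and 0.89 for Tnip1 and -1.07 and 0.70 for Birc3. They kept their sign for Nfkb1 (1.07 to 2.13) and Bcl3 (-2.61 to -0.39). Number differences ran between -1.55 and 0.69 for Nfkb1, -1.30 and 2.05 for Bcl3 and -0.45 and 0.90 for Tnip1. They stayed below 0 for Birc3 (-1.79 to -1.44), Nfkbie (-5.74 to -2.25) and Tnfaip3 (-0.83 to -0.18). They stayed above 0 for Nfkb2 (0.04 to 3.19), Relb (0.44 to 0.70), Rel (0.06 to 1.17) and Nfkbia (0.31 to 0.58).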
